A study of Mus musculus with 12 samples.

Results

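The nuclear-encoded genes of respiratory complexes III, IV and V were followed across hearts of control mice and of mice with mutant IDH2. A gene belonged to the set if the single symbol of its probe set began with Uqcr, with Atp5, or with Cox followed by 4, 5, 6, 7 or 8, or was Cyc1, the gene of cytochrome c1. The choice used names only, with the brightest probe set standing for a gene, and gave 43 of the 19937 genes measured, from 62 probe sets. Complex III had 9 of them, complex IV 17 and complex V 17. Cox7c was left out, since each of the 3 probe sets that name it also names another gene. The set was bright on these arrays: 36 of the 43 genes had a mean log2 intensity of at least 10, and 22 of at least 12, where the median gene stood at 6.69.

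RNA of mouse hearts was hybridised to 12 Affymetrix arrays, 4 labelled control, 4 labelled IDH2 R140Q mutant and 4 labelled IDH2 R172K mutant. The labels do not say which parts of the heart were taken. IDH2 is the mitochondrial isocitrate dehydrogenase, and both mutant forms are known to make D-2-hydroxyglutarate. All mice shared a mixed background of the strains C57BL/6, 129/sv and Balb/c. Mutant mice received 2 mg of 4-hydroxytamoxifen, commonly used to switch on Cre recombinase, for 3 days from an age of 5 weeks. The sources used here do not give the treatment or genotype of control mice, the Cre driver, the age at dissection or the sex of the animals. The protocol names the drug for mutant mice only, so effects of the drug, of recombination and of the mutant enzyme cannot be told apart. Whether each array stands for its own animal is not in the labels, so the p-values cover the variation among arrays, which may be technical.

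Complexes III and IV pass electrons from ubiquinol through cytochrome c to oxygen and pump protons across the inner mitochondrial membrane, and complex V, the ATP synthase, uses the proton gradient to make ATP. Heart muscle depends on this route for most of its ATP. The redox centres of complexes III and IV lie in a few core subunits, some made from mitochondrial DNA, while many small subunits made in the nucleus surround them. Several of these small complex IV subunits come in a form used in heart and skeletal muscle and a form used in most tissues.

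Of facts that concern all arrays, Idh2 itself read 12.74 ± 0.11 on control arrays, 12.45 ± 0.14 on R140Q arrays and 12.38 ± 0.33 on R172K arrays (mean log2 intensity ± SD, n = 4). It passed in neither mutant (limma adjusted p = 0.301 and 0.109), and its probe set does not separate the mutant from the normal allele. The 10 cardiomyocyte markers were bright on every array, with means of 12.80 to 13.33. Atrial markers had means of 8.09 to 11.75 in control, highest in replicate 3, 6.68 to 8.42 in R140Q and 9.42 to 11.15 in R172K, and lung markers stood at 9.65 in R140Q replicate 4 against 4.76 to 5.73 elsewhere. A fit without control 3, R140Q 4 and R172K 3, which are set apart by their atrial or lung marker level, called 13 of the 43 genes in R172K against control. The fit to all arrays called 12. The share of all genes called without these arrays is not given here. In RNA of heart tissue, fewer cells of a type and less RNA per cell cannot be told apart.

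In R172K hearts 11 genes of the 3 complexes fell and 1 rose against control, and 31 did not pass. The genes that fell were Uqcrq, Uqcr10 and Uqcr11 of complex III, Cox4i1, Cox6a2, Cox7a1 and Cox8b of complex IV, and Atp5g2, Atp5o, Atp5j2 and Atp5k of complex V. The gene that rose was Cox6a1, the common counterpart of the muscle subunit Cox6a2. Falls ranged from 0.26 to 0.79 on the log2 scale, so the levels left in R172K were 83.4% of control for Atp5j2 at one end and 57.9% for Cox7a1 at the other. A gene passed at an adjusted p under 0.05 in limma, with Benjamini-Hochberg adjustment over all 19937 genes.

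The share that passed in this comparison was 27.9% of the set and 13.0% of all genes. Falls alone made up 25.6% of the set and 6.78% of all genes, and rises 1 member and 6.23% of all genes. Bright genes fell more often than others: of the 1250 genes with a mean log2 of at least 10, 15.7% passed as lower, against 10 of the 36 members above that level, which is 27.8%. The difference was below 0 in 34 of the 43 members, beside 50.9% of all genes, and the median difference was -0.11 in the set and 0.00 over all genes. Arrays of R172K and control did not overlap, with R172K lower, for 19 members, beside 8.72% of all genes, and with R172K higher for 2, beside 7.47%. At an unadjusted p under 0.05, 19 members passed, 18 of them lower, beside 26.6% of all genes, 12.9% being lower.

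R140Q hearts had no member past the threshold in limma, where 2.2% of all genes passed, 1.08% as higher and 1.12% as lower. At an unadjusted p under 0.05 there were 6 members, 4 lower and 2 higher, beside 17.0% of all genes, 8.24% being lower. The lowest adjusted p of limma was 0.0712, for Atp5g2. The median difference was -0.07 and 30 of 43 differences were below 0, beside 49.1% of all genes. For 10 members the R140Q arrays all lay below the control arrays, beside 7.04% of all genes, and for 2 all above, beside 7.79%. The comparisons of R140Q and R172K with control share the control arrays, so their values are given side by side and not as separate evidence.

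R172K compared directly with R140Q also gave no member past the threshold in limma, where 1.48% of all genes passed, 0.487% as higher and 0.998% as lower. At an unadjusted p under 0.05, 8 members passed, all lower in R172K, beside 16.3% of all genes, 8.86% being lower. The difference was below 0 for 35 members, beside 51.1% of all genes, with a median of -0.06. The lowest adjusted p was 0.0512 in limma, for Cox6a2. The groups did not overlap for 4 members, Cox6a2, Cox5b, Cox7a2l and Atp5g1, all lower in R172K, beside 4.64% of all genes. No member was higher without overlap, beside 3.07%. The 2 mutant groups also lay apart in atrial markers: 3 of the 4 were higher in R172K without overlap, and Myl4, an atrial myosin light chain, passed with a difference of 3.52 (limma adjusted p = 0.0458). Pdgfra, a fibroblast marker, was higher by 0.75 (adjusted p = 0.0207 in limma). The part of these markers in the member differences was not tested.

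**Figure D1:**
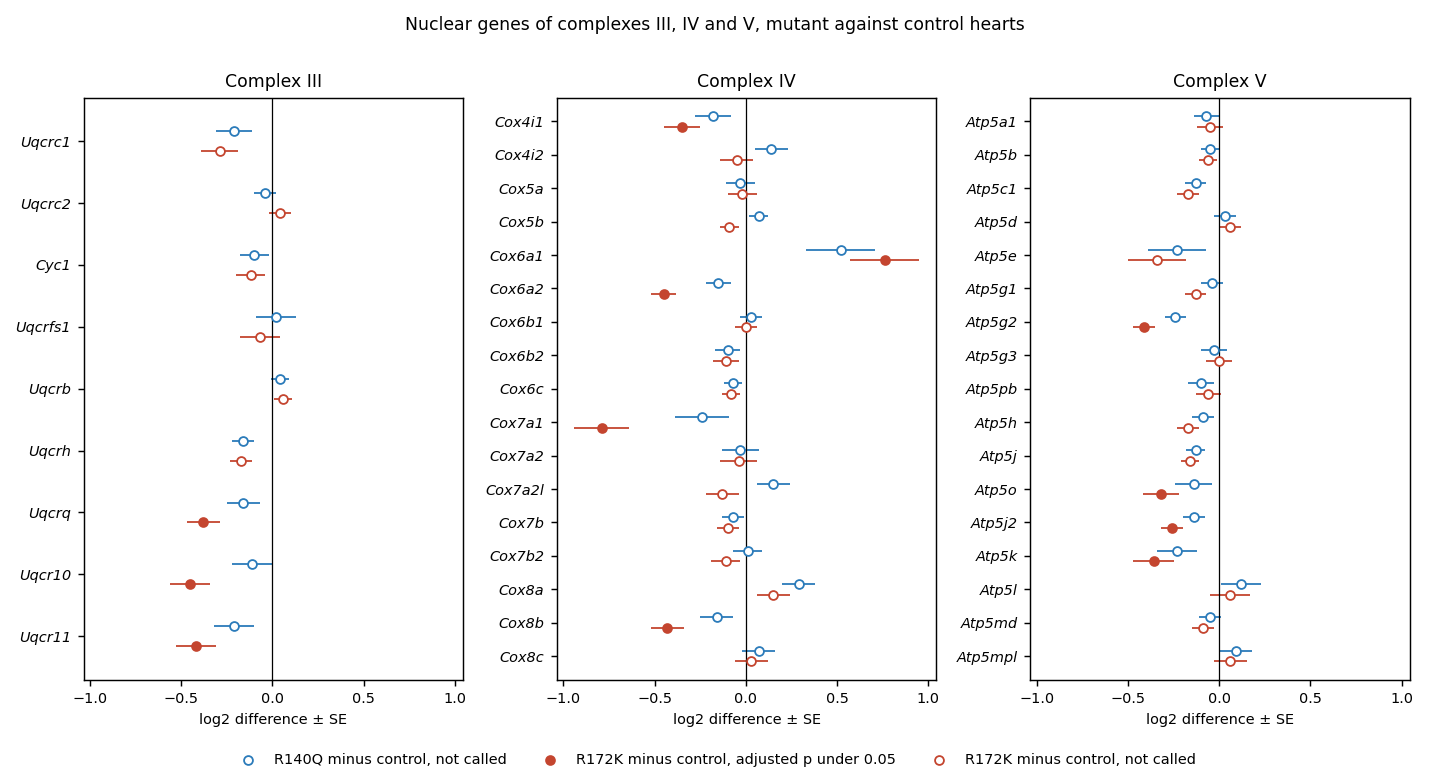
Log2 difference from control with limma's SE for each of the 43 genes, in 3 panels by complex, with R140Q in blue and R172K in red. Filled points mark the 12 genes with an adjusted p under 0.05 in R172K. Most points lie left of 0, Cox7a1 reaches -0.79 and Cox6a1 stands to the right at 0.76.

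In complex III, Uqcrq, Uqcr10 and Uqcr11 fell in R172K, which is 3 of the 5 small accessory subunits, and none of the 4 core and redox subunits passed. The difference between these classes was not tested. The 3 falls are 33.3% of the complex, beside 6.78% of all genes and 15.7% of genes with a mean log2 of at least 10. The median difference over the 9 genes was -0.17 in R172K and -0.11 in R140Q. At an unadjusted p under 0.05 in limma, 5 of the 9 were lower in R172K, beside 12.9% of all genes. In R140Q 1 was lower, beside 8.24% of all genes.

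Uqcr10 encodes one of the smallest subunits, bound to cytochrome c1. Its log2 intensity was 10.52, 10.48, 10.32 and 10.43 in the control arrays, 10.59, 10.30, 10.26 and 10.15 in R140Q, and 9.84, 10.19, 10.10 and 9.79 in R172K. All R172K arrays lay below all control arrays, and R140Q overlapped both. The fall in R172K was -0.45 ± 0.11 (SE, limma adjusted p = 0.0181), which left 73.0% of the control level, and the R140Q difference was -0.11 ± 0.11.

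Uqcr11 is the smallest complex III subunit, bound at the edge of the complex. It read 12.05, 11.92, 11.79 and 11.93 in control, 11.71, 11.88, 11.52 and 11.74 in R140Q, and 11.54, 11.58, 11.72 and 11.18 in R172K. R172K lay below control throughout, with replicate 4 far below the others, and R140Q ran into both groups. Its fall was -0.42 ± 0.11 (SE, limma adjusted p = 0.0279). A further probe set of Uqcr11 fell by 0.52 (adjusted p = 0.0164 in the fit to all probe sets).

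Uqcrq encodes the subunit that binds beside cytochrome b. Its arrays read 11.61, 11.63, 11.64 and 11.74 in control, 11.56, 11.60, 11.42 and 11.39 in R140Q, and 11.32, 11.33, 11.43 and 11.01 in R172K. Both mutant groups lay below control without overlap, and they overlapped each other. The change was -0.38 ± 0.09 in R172K (SE, limma adjusted p = 0.0153) and -0.16 ± 0.09 in R140Q (adjusted p = 0.393).

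Among the core and redox subunits, Uqcrc1, a large matrix-side core protein, came nearest to the threshold in R172K. It read 12.23 ± 0.06 in control, 12.01 ± 0.11 in R140Q and 11.93 ± 0.22 in R172K (SD, n = 4), a difference of -0.29 ± 0.10 in R172K with an adjusted p of 0.0687 in limma. Its partner Uqcrc2 differed by 0.04 ± 0.06 in R172K. Cyc1, which hands electrons to cytochrome c, differed by -0.12 ± 0.08, and Uqcrfs1, the Rieske iron-sulfur protein, by -0.07 ± 0.11. Neither group of arrays stood clear of control for Cyc1, Uqcrc2 or Uqcrfs1. Of the other small subunits, Uqcrh, the hinge protein, differed by -0.17 ± 0.06 (adjusted p = 0.0944 in limma) with all R172K arrays below control. Uqcrb differed by 0.06 ± 0.05.

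Complex IV held both extremes of the set. Of its 17 genes, Cox7a1, Cox6a2, Cox8b and Cox4i1 fell in R172K and Cox6a1 rose. The falls are 23.5% of the complex, beside 6.78% of all genes and 15.7% of genes with a mean log2 of at least 10. The 3 genes of heart and skeletal muscle isoforms, Cox6a2, Cox7a1 and Cox8b, all fell in R172K, and the common forms of the same subunits did not. The median over the 17 genes was -0.09 in R172K and -0.03 in R140Q.

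Sequence just before and after the annotated start is shown for these isoforms because the pairs moved unequally. Promoters came from RefSeq (GRCm38.p6), as 300 bases running from 250 bases before to 50 after the start, given 5′ to 3′ on the gene's own strand. Of the 43 genes 32 matched the table. Capitals mark the letters searched on both strands: CAGCTG for an E-box of muscle regulators, CCGGAA for ETS factors and GCGCATGC for NRF1. Also searched were the box of MEF2 factors, AAGGTCA for ERR receptors and AAGATGG for YY1. The muscle isoform Cox7a1 (chr7:30183921-30184220, plus strand) held none of these letters and 7 CpG, and Cox7a2 (chr9:79759804-79760103, minus strand) held 1 ETS match and 20 CpG. Cox8b (chr7:140900397-140900696, minus strand) held 2 E-box matches and 2 CpG, and Cox8a (chr19:7217567-7217866, minus strand) held 3 ETS matches and 19 CpG. Cox6a1 (chr5:115348909-115349208, minus strand) held 1 ETS match, 2 overlapping NRF1 matches and 32 CpG.
Cox7a1: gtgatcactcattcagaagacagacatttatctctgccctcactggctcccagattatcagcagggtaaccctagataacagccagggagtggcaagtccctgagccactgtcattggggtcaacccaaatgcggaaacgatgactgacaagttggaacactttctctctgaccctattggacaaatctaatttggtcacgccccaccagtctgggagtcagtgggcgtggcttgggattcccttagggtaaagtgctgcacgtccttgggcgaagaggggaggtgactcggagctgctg
Cox7a2: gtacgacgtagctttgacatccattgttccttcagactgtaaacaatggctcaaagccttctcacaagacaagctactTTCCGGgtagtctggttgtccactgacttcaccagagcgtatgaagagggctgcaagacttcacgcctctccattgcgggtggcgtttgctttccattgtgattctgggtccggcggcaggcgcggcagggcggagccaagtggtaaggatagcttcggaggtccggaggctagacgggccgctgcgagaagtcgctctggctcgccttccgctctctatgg
Cox8b: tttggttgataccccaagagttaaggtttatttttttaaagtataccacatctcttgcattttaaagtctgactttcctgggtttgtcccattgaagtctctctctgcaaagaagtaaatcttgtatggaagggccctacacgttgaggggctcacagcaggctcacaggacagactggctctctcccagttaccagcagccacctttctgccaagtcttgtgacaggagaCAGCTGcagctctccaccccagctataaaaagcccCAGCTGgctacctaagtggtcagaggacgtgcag
Cox8a: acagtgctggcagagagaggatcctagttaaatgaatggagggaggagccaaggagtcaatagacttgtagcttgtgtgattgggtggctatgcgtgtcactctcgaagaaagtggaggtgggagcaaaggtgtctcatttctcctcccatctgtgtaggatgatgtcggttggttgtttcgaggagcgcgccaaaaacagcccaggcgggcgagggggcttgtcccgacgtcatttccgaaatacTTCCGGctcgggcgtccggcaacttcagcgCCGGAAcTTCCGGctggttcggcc
Cox6a1: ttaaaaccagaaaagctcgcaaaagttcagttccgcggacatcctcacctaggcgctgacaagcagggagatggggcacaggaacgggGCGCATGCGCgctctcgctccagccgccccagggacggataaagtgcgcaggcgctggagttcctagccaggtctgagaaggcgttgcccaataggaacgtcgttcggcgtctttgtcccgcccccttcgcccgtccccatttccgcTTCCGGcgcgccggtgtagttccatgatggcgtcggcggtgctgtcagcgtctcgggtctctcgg

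Over the 32 members with a promoter in the table, CCGGAA was present in 43.8%, beside 22.0% of the promoters of all 15562 genes. GCGCATGC was present in 18.8% beside 4.29%, and AAGGTCA in 12.5% beside 4.48%. CAGCTG was present in 6.25% beside 18.4%, the MEF2 box in 3.12% beside 4.15%, and AAGATGG in 9.38% beside 7.25%. The median GC content was 56.0% in the members and 57.7% over all genes, with a median of 19 and 15 CpG. These are counts of letters in a window and say nothing of binding. No measurement of factor binding was analysed here.

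Cox7a1 encodes the muscle form of subunit 7a, a small membrane-spanning subunit of the enzyme. It read 13.12, 13.12, 13.11 and 13.12 in control, 12.91, 12.92, 12.80 and 12.88 in R140Q, and 12.22, 12.29, 12.89 and 11.93 in R172K. The control arrays were almost identical, all R140Q arrays lay below them, and R172K spread widely, with replicate 3 inside the R140Q range. The fall in R172K was -0.79 ± 0.15 (SE, limma adjusted p = 0.00616) and the R140Q difference was -0.24 ± 0.15 (adjusted p = 0.456). R172K differed from R140Q by -0.55 ± 0.15 (adjusted p = 0.0851 in limma). Its common form Cox7a2 read 11.72, 11.70, 11.74 and 11.77 in control, 11.73, 11.75, 11.71 and 11.60 in R140Q, and 11.87, 11.86, 11.72 and 11.33 in R172K. All 3 groups overlapped, with R172K running from above to below the others. The R172K difference of Cox7a2 was -0.04 ± 0.10.

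The relative Cox7a2l, which helps join complexes III and IV into supercomplexes, read 8.79, 8.80, 8.79 and 8.77 in control, 9.18, 8.80, 8.95 and 8.82 in R140Q, and 8.73, 8.78, 8.60 and 8.52 in R172K. Every R140Q array lay above every R172K array, and the difference between the mutants was -0.28 ± 0.09 (SE, limma adjusted p = 0.124). A dimmer probe set of Cox7a2l, with a mean of 7.92, differed by -0.14 (adjusted p = 0.645 in limma's fit to all probe sets). Against control, R172K differed by -0.13 in the probe set used and by 0.05 in the dimmer one.

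Cox6a2 is the muscle form of subunit 6a, which binds adenine nucleotides. It read 12.26, 12.32, 12.34 and 12.36 in control, 12.20, 12.25, 12.17 and 12.07 in R140Q, and 11.82, 11.90, 12.01 and 11.75 in R172K. The 3 groups formed separate steps with no overlap between neighbours, control highest and R172K lowest. The fall in R172K was -0.45 ± 0.07 (SE, limma adjusted p = 0.00257), the smallest adjusted p of the set, and left 73.2% of control. R140Q differed from control by -0.15 ± 0.07 (adjusted p = 0.272 in limma).

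The common form Cox6a1 ran the other way. It read 8.77, 9.18, 9.55 and 9.56 in control, 9.99, 9.72, 9.95 and 9.51 in R140Q, and 10.31, 10.18, 9.62 and 9.97 in R172K. Every R172K array lay above every control array, R172K replicate 3 by little, and one R140Q array lay within the control range. The rise in R172K was 0.76 ± 0.19 (SE, limma adjusted p = 0.0216), or 1.69-fold, and the R140Q difference was 0.52 ± 0.19 (adjusted p = 0.168). Its control arrays had an SD of 0.37, the widest control spread among the 43 genes.

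Cox8b is the muscle form of subunit 8, a small membrane-spanning subunit. It read 13.17, 13.20, 13.15 and 13.19 in control, 12.98, 13.13, 12.94 and 13.03 in R140Q, and 12.71, 12.81, 12.99 and 12.46 in R172K. Both mutant groups lay below control without overlap, and R172K replicate 3 lay among the R140Q arrays. The fall was -0.43 ± 0.09 in R172K (SE, limma adjusted p = 0.0115), and the R140Q difference was -0.16 ± 0.09 (adjusted p = 0.446). The common form Cox8a read 10.49, 10.70, 10.76 and 10.89 in control, 11.05, 10.99, 11.14 and 10.84 in R140Q, and 10.83, 10.86, 10.77 and 10.99 in R172K. All groups overlapped, R140Q being mostly higher. Cox8a differed by 0.29 ± 0.09 in R140Q (adjusted p = 0.113 in limma) and by 0.15 ± 0.09 in R172K (adjusted p = 0.34).

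**Figure D2:**
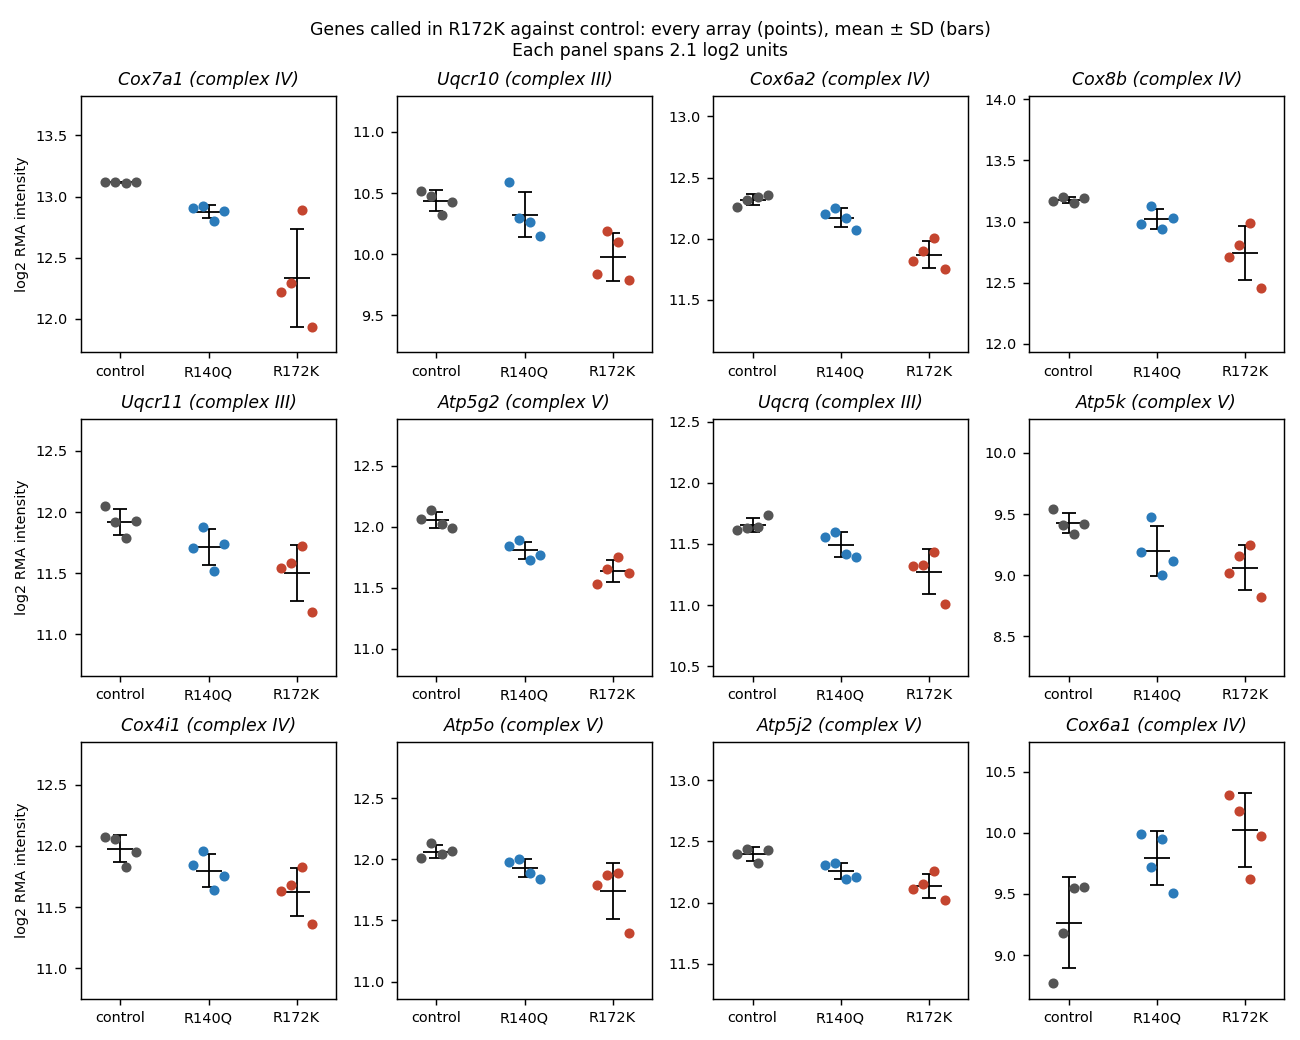
Log2 RMA intensity in each of the 12 arrays for the 12 genes called in R172K against control, in panels of equal height, with points for arrays and bars for mean ± SD of 4 arrays. R172K lies below control without overlap in 11 panels and above it for Cox6a1.

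To set the paired isoforms against each other within an array, the log2 intensity of the common form was subtracted from that of the muscle form. Probe sets differ in brightness for the same amount of RNA, so only changes in this ratio between groups carry meaning. The ratio was lower in both mutants than in control for all 3 pairs, and every mutant array lay below every control array. Each of these 6 comparisons gave an exact two-sided permutation p of 0.0286, the smallest that 70 splits of 4 against 4 arrays allow, and 0.0429 after Benjamini-Hochberg adjustment over 9 comparisons. The pairs were chosen with earlier results of these data known, and a lower ratio shows unequal change of the 2 forms, not which one moved.

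The ratio of Cox6a2 to Cox6a1 was 3.49, 3.13, 2.79 and 2.80 in control, 2.21, 2.53, 2.22 and 2.56 in R140Q, and 1.51, 1.72, 2.40 and 1.78 in R172K. R172K replicate 3 fell inside the R140Q range and the other R172K arrays below it. The change was -0.68 ± 0.19 in R140Q and -1.20 ± 0.25 in R172K (SE).

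For Cox7a1 over Cox7a2 the ratio was 1.40, 1.42, 1.37 and 1.35 in control, 1.18, 1.17, 1.09 and 1.28 in R140Q, and 0.35, 0.43, 1.17 and 0.60 in R172K. Again R172K replicate 3 lay with the R140Q arrays. The change was -0.21 ± 0.04 in R140Q and -0.75 ± 0.19 in R172K.

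For Cox8b over Cox8a the ratio was 2.67, 2.50, 2.39 and 2.30 in control, 1.93, 2.14, 1.80 and 2.19 in R140Q, and 1.88, 1.96, 2.22 and 1.47 in R172K. The mutant groups overlapped widely. The change was -0.45 ± 0.12 in R140Q and -0.58 ± 0.17 in R172K.

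Between the mutants no pair passed. R172K minus R140Q was -0.53 ± 0.21 for subunit 6a and -0.54 ± 0.19 for subunit 7a, each with an exact permutation p of 0.0857 and 0.0964 after adjustment. For subunit 8 it was -0.13 ± 0.18 (exact permutation p = 0.571).

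**Figure D3:**
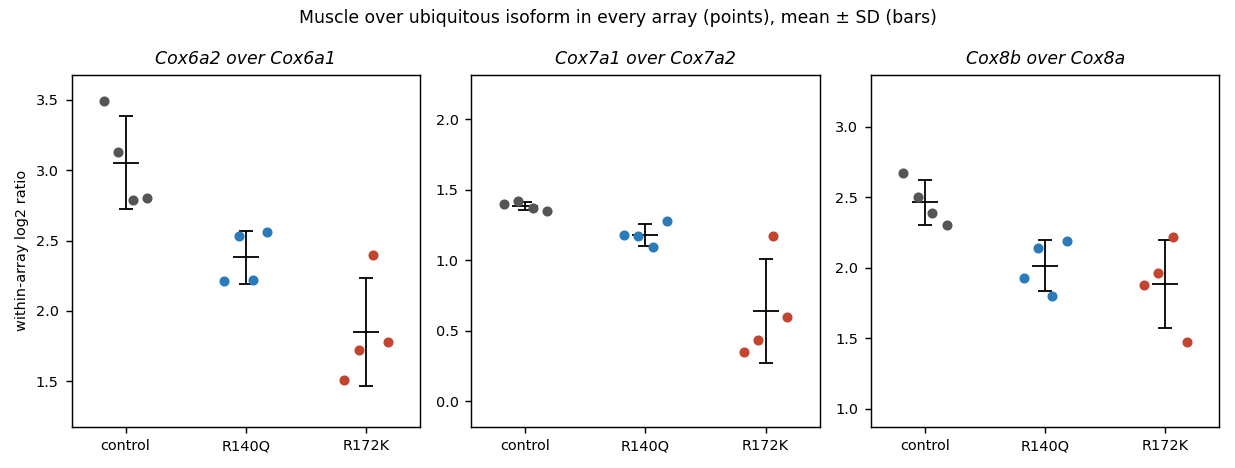
Within-array log2 ratio of the muscle to the common isoform for subunits 6a, 7a and 8, with points for the 12 arrays and bars for mean ± SD of 4 arrays. Every mutant array lies below all control arrays in each panel, and R172K replicate 3 stands highest of its group in each.

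Cox4i1, the common form of subunit 4 and the largest nuclear subunit of the complex, fell as well. It read 12.07, 12.06, 11.83 and 11.95 in control, 11.84, 11.96, 11.64 and 11.75 in R140Q, and 11.63, 11.68, 11.83 and 11.36 in R172K. R172K replicate 3 lay level with the lowest control array and the others clearly below. The fall was -0.35 ± 0.10 (SE, limma adjusted p = 0.0407), and it passed in 4 of the 12 fits that left out 1 array. Cox4i2, a form found mainly in lung and linked to oxygen sensing, read 7.77, 7.82, 7.64 and 7.72 in control, 7.91, 7.86, 7.83 and 7.90 in R140Q, and 7.54, 7.48, 7.94 and 7.79 in R172K. All R140Q arrays lay above control, and R172K ran across both groups. Neither difference passed, at 0.14 ± 0.09 in R140Q and -0.05 ± 0.09 in R172K.

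The other complex IV genes stayed within small differences. Cox6b1, which faces cytochrome c at the outer side, read 12.48, 12.58, 12.50 and 12.58 in control, 12.47, 12.63, 12.53 and 12.62 in R140Q, and 12.55, 12.57, 12.52 and 12.47 in R172K. The groups overlapped fully and the R172K difference was 0.00 ± 0.06. Its testis form Cox6b2 was dim, at 5.68, 5.70, 5.61 and 5.89 in control, 5.65, 5.54, 5.67 and 5.60 in R140Q, and 5.52, 5.64, 5.62 and 5.65 in R172K. Cox6b2 and the other testis forms Cox7b2 and Cox8c were the 3 members with a mean below 7, and none of them passed. Of Cox5a, Cox5b, Cox6c and Cox7b, which have no muscle form, none passed in any comparison, and their R172K differences ran from -0.10 to -0.02. The mitochondrially encoded subunit II, listed as COX2, which carries the copper site that accepts electrons from cytochrome c, read 13.41 in control, 13.41 in R140Q and 13.40 in R172K on average.

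In complex V, Atp5g2, Atp5o, Atp5j2 and Atp5k fell in R172K, out of 17 genes, and none rose. These 4 are 23.5% of the complex, beside 6.78% of all genes and 15.7% of genes with a mean log2 of at least 10. They are 1 of the 3 genes of the membrane ring, 1 of the 4 of the outer stalk and 2 of the 5 of the small membrane subunits, and the parts were not tested against each other. The median difference was -0.13 in R172K and -0.09 in R140Q. The catalytic head, built from Atp5a1 and Atp5b, did not pass: Atp5a1 differed by -0.05 ± 0.07 and Atp5b by -0.06 ± 0.05 in R172K.

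The c ring turns as protons pass and is made of one protein encoded by 3 genes, which differ in their import sequences. Atp5g2 read 12.06, 12.14, 12.02 and 11.99 in control, 11.84, 11.89, 11.73 and 11.77 in R140Q, and 11.53, 11.65, 11.75 and 11.62 in R172K. Both mutant groups lay below control without overlap, and R172K replicate 3 reached into the R140Q range. The fall was -0.41 ± 0.06 in R172K (SE, limma adjusted p = 0.00305), which left 75.1% of control, and the R140Q difference was -0.24 ± 0.06 (adjusted p = 0.0712).

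Atp5g2 had 3 probe sets. The brightest, with a mean of 11.83, gave the values above. One with a mean of 8.63 differed by -0.48 in R172K (adjusted p = 0.0571 in limma's fit to all probe sets) and one with a mean of 7.99 by -0.12 (adjusted p = 0.49). The annotation used here does not say which of them lies in the gene and which in a copy of it, so the size of the Atp5g2 change is uncertain.

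Atp5g1 read 13.44, 13.42, 13.36 and 13.40 in control, 13.37, 13.37, 13.38 and 13.35 in R140Q, and 13.33, 13.33, 13.32 and 13.14 in R172K. R172K lay just below both other groups. The difference was -0.13 ± 0.06 (SE, limma adjusted p = 0.186), but a dimmer probe set of the gene, with a mean of 7.49, differed by -0.83 (adjusted p = 0.0161 in the fit to all probe sets). Atp5g3 read 12.63, 12.64, 12.56 and 12.66 in control, 12.60, 12.72, 12.51 and 12.55 in R140Q, and 12.65, 12.71, 12.67 and 12.47 in R172K. The groups overlapped and the R172K difference was 0.00 ± 0.07. Within arrays, with the brightest probe set of each gene, the log2 ratio of Atp5g2 to Atp5g1 changed by -0.29 in R172K. That of Atp5g2 to Atp5g3 changed by -0.42, and R172K and control did not overlap in either ratio. Both ratios depend on the probe sets chosen. The dimmer Atp5g1 probe set fell more than any Atp5g2 probe set, and the dimmest Atp5g2 probe set differed by only -0.12.

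In the stalk that holds the head still, Atp5o, the subunit that confers oligomycin sensitivity, had means of 12.06 ± 0.05 in control and 11.93 ± 0.08 in R140Q (SD, n = 4) and read 11.79, 11.87, 11.89 and 11.40 in R172K. R172K replicate 4 stood far below the others of its group. The fall was -0.32 ± 0.10 (SE, limma adjusted p = 0.0451), and it passed in 2 of the 12 fits that left out 1 array. The other stalk subunits Atp5j, Atp5h and Atp5pb did not pass, at -0.16 ± 0.05, -0.17 ± 0.06 and -0.06 ± 0.07. All R172K arrays lay below control for Atp5j and Atp5h.

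Atp5j2 and Atp5k, which encode subunits f and e at the base of the membrane part, fell by similar amounts. Atp5j2 read 12.40, 12.44, 12.32 and 12.43 in control, 12.31, 12.32, 12.19 and 12.21 in R140Q, and 12.11, 12.15, 12.26 and 12.02 in R172K, a fall of -0.26 ± 0.06 (SE, limma adjusted p = 0.0202). Atp5k had means of 9.43 ± 0.08 in control and 9.20 ± 0.20 in R140Q (SD, n = 4) and read 9.02, 9.16, 9.25 and 8.82 in R172K. R172K lay below control for both genes. Atp5k fell by -0.36 ± 0.11 (adjusted p = 0.0468 in limma) and passed in 3 of the 12 fits that left out 1 array. Atp5l, Atp5md and Atp5mpl, the other small membrane subunits, differed by 0.06 ± 0.11, -0.09 ± 0.06 and 0.06 ± 0.09. In the central stalk, Atp5c1 differed by -0.17 ± 0.06, Atp5d by 0.06 ± 0.06 and Atp5e by -0.34 ± 0.16, and none passed.

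**Figure D4:**
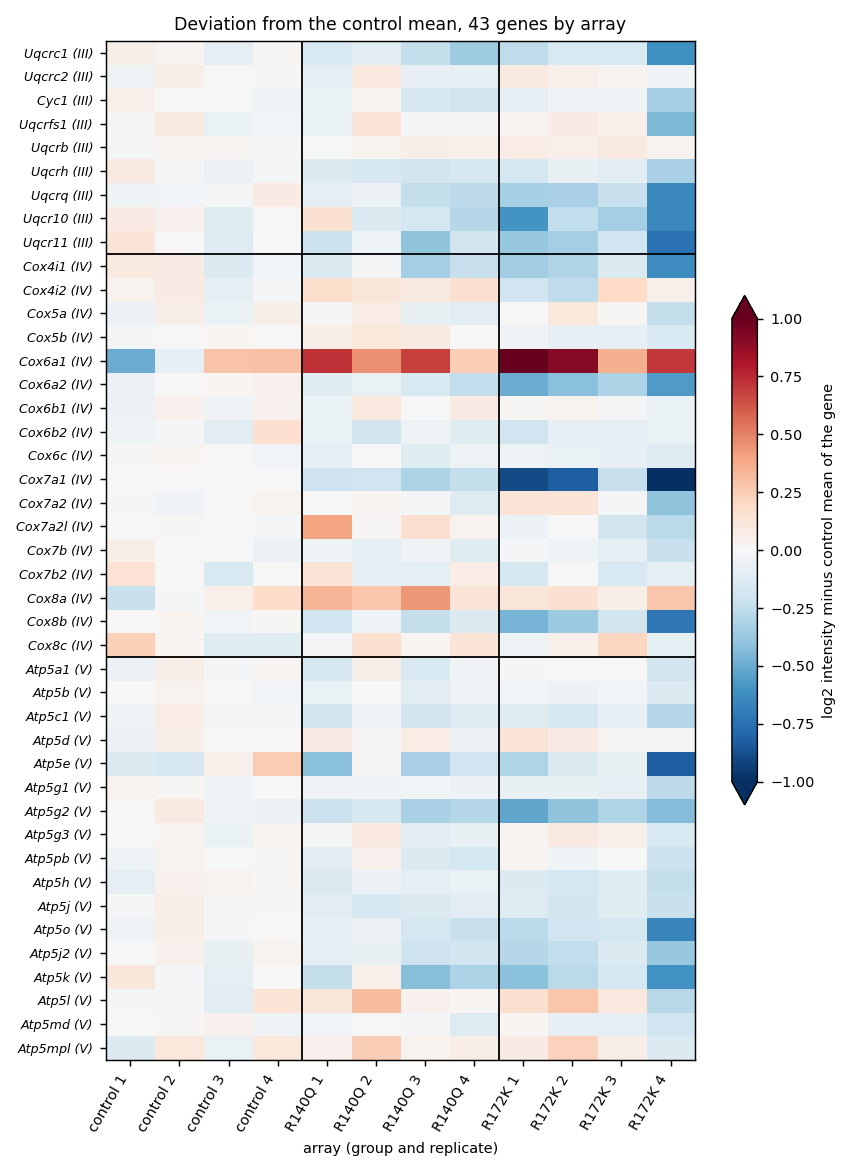
Log2 intensity minus the control mean of the same gene, for 43 genes (rows, by complex) and 12 arrays (columns, by group), on a colour scale from -1 to 1. R172K replicate 4 is the bluest column, with a median deviation of -0.24, and Cox6a1 is the reddest row.

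The 11 genes that fell did so unevenly among the R172K arrays. Replicate 4 was the lowest of its group for 10 of the 11, with a median deviation from the control mean of -0.65. Replicate 3 was the highest for 10 of the 11, at -0.21, and replicates 1 and 2 stood between, at -0.41 and -0.32. All 11 genes lay below the lowest control array in each of the 4 R172K arrays. They were chosen by their fall in these same arrays, so this describes the calls and adds no support to them. Over all 43 genes, R172K replicate 4 had 34 below the lowest control array and the other R172K arrays 22 to 25. The like share of all genes is not given here. Among R140Q arrays, replicate 2 was highest for 10 of the 11. Without R172K replicate 4 the R172K comparison called 8 members, without replicate 3 it called 15 and without replicate 1 it called 5. Leaving out control replicate 1, 2 or 4 left 6, 5 and 7. Leaving out an array also changes the calls over all genes. The share of all genes called in these fits is not given here, so these counts are not particular to the members.

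Markers of cell types moved with the same comparison. Of 10 cardiomyocyte markers 5 fell in R172K, beside 6.78% of all genes. Myl2 by 0.54 and Ryr2 by 0.49 were the largest falls, while Tnnt2 differed by -0.04. None passed in R140Q by limma, and 4 were lower at an unadjusted p under 0.05, beside 8.24% of all genes. The mean of the 10 markers was 13.25 to 13.33 in control, 13.11 to 13.21 in R140Q and 12.80 to 13.15 in R172K. It was lowest in R172K replicate 4 and highest, within that group, in replicate 3. Of 6 fibroblast markers 5 rose in R172K, beside 6.23% of all genes. Postn rose by 2.68 and Pdgfra by 0.62 on the log2 scale. Dcn, the brightest of the 6, differed by 0.10 (limma adjusted p = 0.535). None passed in R140Q, and 2 did at an unadjusted p under 0.05, beside 17.0% of all genes. The fibroblast mean was 8.96 to 9.48 in control, 9.41 to 10.37 in R140Q and 9.79 to 11.16 in R172K, highest in replicate 4 and lowest in replicate 3. The part of these shifts in the falls of respiratory genes was not tested.

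Endothelial markers rose for 3 of 5 in R140Q (Cdh5, Kdr and Esam), beside 1.08% of all genes. In R172K 2 of 5 rose (Kdr and Esam), beside 6.23%. The endothelial mean was 9.85 to 9.93 in control, 10.21 to 10.28 in R140Q and 10.07 to 10.25 in R172K. Macrophage markers passed in none of 6 by limma. At an unadjusted p under 0.05, 1 passed in R172K and 0 in R140Q, beside 26.6% and 17.0% of all genes. The macrophage mean reached 9.18 in R172K replicate 4, against 7.70 to 8.33 in the other arrays. Of 4 brown adipose markers 1 rose in both mutants, beside 1.08% of all genes in R140Q and 6.23% in R172K. It was Cidea, a lipid droplet protein, higher by 0.62 in R140Q (limma adjusted p = 0.049) and by 1.01 in R172K (adjusted p = 0.0021). The brown adipose mean was 5.70 to 5.76 in control, 5.82 to 6.05 in R140Q and 6.08 to 6.43 in R172K. Control overlapped neither mutant. Ucp1 was dim, with means of 4.94, 4.97 and 5.08 in these groups, as was Elovl3, with 4.40, 4.41 and 4.33. Dio2 differed by 0.31 in R140Q and 0.77 in R172K (limma adjusted p = 0.617 and 0.0714). None of these 3 passed. The part of these markers in the changes of respiratory genes was not tested either. Fast skeletal muscle markers, which would reveal muscle tissue other than heart, had means of 5.69 to 5.98, and none of the 6 passed. Tnnt3 read 7.89 in R172K replicate 1, against 6.53 to 6.81 in the other arrays. Atp2a1 was lower in R172K than in control by 0.24 without overlap (limma adjusted p = 0.0767).

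As a description chosen after the values were seen, each gene was also expressed relative to the mean of the 10 cardiomyocyte markers on the same array. On that scale 10 of the 11 fallen genes kept a difference below 0 in R172K, and only Cox7a1 and Uqcrq kept R172K and control apart. The 11 were chosen by their fall in these same arrays, which favours a difference below 0 here. The share of all genes below 0 on this scale is not given, so the count is description only. Cox7a1 changed by -0.52 and Uqcrq by -0.12. Cox6a2, Cox8b and Atp5g2 changed by -0.18, -0.17 and -0.15 with overlapping groups, and Atp5j2 by 0.01. Cox6a1 changed by 1.02, with R172K above control in every array.

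**Figure D5:**
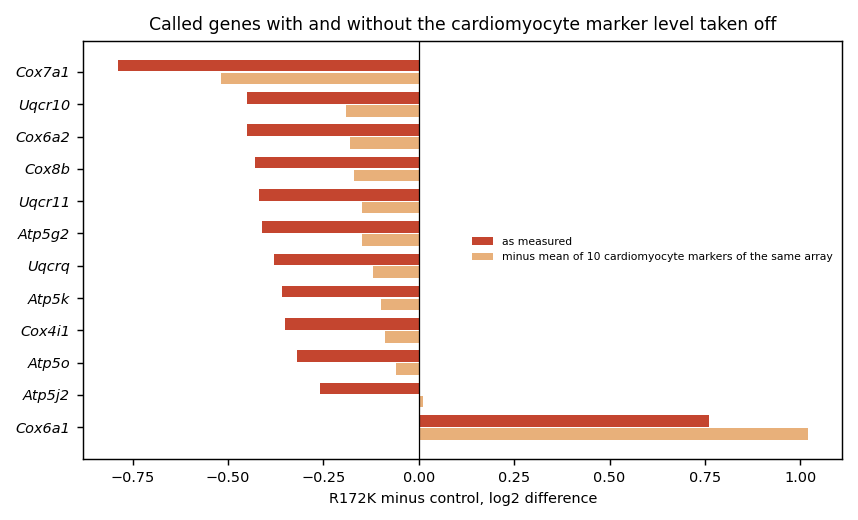
R172K minus control as a log2 difference for the 12 called genes, as measured (red) and after the mean of 10 cardiomyocyte markers of the same array was taken off (tan). Cox7a1 goes from -0.79 to -0.52, the other falls shrink to between -0.19 and 0.01, and the rise of Cox6a1 goes from 0.76 to 1.02.

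Complexes I and II also held genes that passed in R172K. Of 34 measured complex I subunit genes 11 fell in R172K and none rose. The falls are 32.4%, beside 25.6% of the set and 6.78% of all genes. The median R172K difference was -0.25 in complex I and -0.11 in the set. In R140Q 0 were called by limma, beside 2.2% of all genes. At an unadjusted p under 0.05, 5 were lower in R140Q, beside 8.24% of all genes. Complex I, which feeds electrons from NADH to ubiquinone, had Ndufa2 at -0.60, Ndufc1 at -0.40, Ndufs6 at -0.58 and Ndufv3 at -0.38 as the genes with the smallest p among those that fell. All 4 are accessory subunits, but core subunits passed as lower too. Ndufs1 differed by -0.63 (limma adjusted p = 0.0168) and Ndufv1 by -0.32 (adjusted p = 0.0474). In complex II, the succinate dehydrogenase, its membrane anchors moved apart: Sdhc fell by 0.42 and Sdhd rose by 0.36, while Sdha and Sdhb did not pass. That is 1 fall and 1 rise among 4 genes, beside 6.78% and 6.23% of all genes.

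Among helpers of assembly, Bcs1l, which inserts the Rieske protein into complex III, fell in R172K by 0.71. It was the only one of 6 complex III factors to pass, which is 16.7% beside 13.0% of all genes. Cox20, a chaperone of the mitochondrially encoded subunit II, fell by 0.76 (limma adjusted p = 0.00133). It was the only one of 19 complex IV factors measured to pass, which is 5.26% and below the 13.0% of all genes. None of 4 complex V factors passed in R172K by limma (1 at an unadjusted p under 0.05, beside 26.6% of all genes). Cycs, the cytochrome c that links complexes III and IV, differed by 0.02 in R172K, and Atpif1, the inhibitor of ATP synthase, by 0.16 (adjusted p = 0.152 in limma).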

How the data were processed

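The deposited table holds 1 intensity per probe set and array, which the authors computed by RMA according to the submitters' processing notes. The sources used here give neither version nor annotation. The deposited intensity is linear, as judged from its values (array medians 74.8 to 78.0, highest 17591), so log2 was taken, with no pseudocount. RMA gives all arrays a like distribution, so a change common to most genes cannot be seen. Of 34760 probe sets, 21640 carry 1 symbol in the platform's table and gave 19937 genes, each by its brightest probe set.

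Group means of all 12 arrays were fitted with limma 3.58.1 (R 4.3.3; lmFit, eBayes, two-sided), with Benjamini-Hochberg adjustment over all genes of a contrast and a threshold of 0.05. Dim genes were kept, and no detection calls were used. Isoform ratios were compared by exact permutation (scipy 1.17.1). The fit was tested on simulated data. The number of arrays limits the precision. Named are all genes that passed, the isoform families and the core subunits, and of other pathway lists those that passed, up to 4 by smallest p; markers named singly were chosen after their values were seen. Members, pairs and lists were chosen with earlier results of these data known. Alternatives varied the arrays, block, probe set, filter, normalization, variance model and weights. Mitochondrially encoded subunits other than COX2 were not analysed here, nor were Cox7c, Ndufb4, Sco2, Cox16, Pet100 and Pet117. All arrays differed from each other at 34741 probe sets or more.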

Additional observations from a re-analysis of the deposited data

Results flagged for a closer look

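Among 111 groups of 4 arrays examined (26 genes, the marker means and the isoform ratios), 6 had an array far from the rest by Dixon's criterion; chance alone gives about 1 in 20. R172K replicate 4 accounts for 4 of them. Uqcrfs1 read 9.72 there against 10.20 to 10.25 in the other R172K arrays, Atp5a1 12.79 against 12.95 to 12.98, Atp5g1 13.14 against 13.32 to 13.33, and the mean of the brown adipose markers 6.43 against 6.08 to 6.14. Control replicate 3 accounts for the remaining flags: Cox7a1 read 13.11 against 13.12, a very small gap, and the mean of the lung markers 5.65 against 4.90 to 5.03.

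Genes outside the set differed between the mutants themselves (limma, R172K minus R140Q). Ndufa2 differed by -0.68 (adjusted p = 0.0207), Ndufc1 by -0.35 (adjusted p = 0.0468), Bcs1l by -0.78 (adjusted p = 0.0468) and Cox20 by -0.48 (adjusted p = 0.0406). All R172K arrays lay below all R140Q arrays for each of the 4.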

How the results depend on the processing

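Cox6a2, Cox7a1, Cox8b, Atp5g2 and Uqcrq passed in R172K against control in all 12 fits that left out 1 array and under all 9 other settings. The other calls were lost in at least 3 of the 12, Atp5o in 10, Atp5k in 9 and Cox4i1 in 8. The cause was not tested. For Atp5g2 these fits used its brightest probe set or the mean of its probe sets. Its dimmer probe sets did not pass singly (adjusted p = 0.0571 and 0.49 in limma's fit to all probe sets). The count of 12 ranged from 5 to 15 with 1 array left out and was 9 with the replicate block, which lost Atp5k, Cox4i1 and Cox6a1. Here and below, the share of all genes called under each setting is not given. Same-numbered arrays correlated by -0.34 to 0.15, with 2 of 12 values above 0.1, so no pairing by number was seen. With 4 arrays per group a weak pairing could go unseen. For R140Q the count of 0 became 2 with only the arrays compared (Atp5g2, Cox7a1), 1 without dim genes, 1 with array weights, and 0 to 1 with 1 array left out. For R172K against R140Q the count of 0 became 1 without dim genes (Cox6a2), 1 with centred arrays (Cox6a2), 4 with array weights, 2 without control 3, R140Q 4 and R172K 3, and 0 to 3 with 1 array left out (3 without R172K 3). The median differences ranged from -0.08 to -0.05 in R140Q, -0.14 to -0.08 in R172K and -0.09 to -0.01 between the mutants over all settings, and with 1 array left out from -0.08 to -0.06, -0.12 to -0.08 and -0.09 to -0.01.

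No called value changed sign, and the uncalled subunit 8 ratio between the mutants went from -0.13 to 0.01 without R172K replicate 4. Smaller designs cannot pass the threshold for the isoform ratios. With the replicate block the smallest exact p is 0.125, at changes of -0.68, -0.21 and -0.45 in R140Q and -1.20, -0.75 and -0.58 in R172K for subunits 6a, 7a and 8. Without the 3 arrays it is 0.1, at -0.83, -0.25 and -0.54 in R140Q and -1.47, -0.93 and -0.72 in R172K. With 1 array left out it is 0.0571, with ranges in R140Q of -0.76 to -0.53, -0.24 to -0.18 and -0.51 to -0.38, and in R172K of -1.39 to -1.06, -0.93 to -0.66 and -0.69 to -0.45. Between the mutants the ranges were -0.71 to -0.41, -0.72 to -0.45 and -0.24 to 0.01.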
